A study of Homo sapiens with 2 samples.

Results

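RAB GTPase genes were taken as the peaks annotated to a protein-coding gene whose symbol is RAB followed by digits and at most 2 further characters, in every annotation class. The rule took 56 genes, 55 in the control list with 168 of its 49854 peaks and 46 in the drug list with 94 of its 29283 peaks. RAB3IP, an exchange factor, and RAB5IF are not RAB GTPases, although their symbols meet the rule. They were kept apart, which left 54 RAB genes with 159 control and 91 drug peaks. The study profiled PLC8024, a human liver cancer cell line, by CUT&Tag, in which an antibody bound in permeable nuclei brings a transposase to the chromatin around its target. The groups hold 1 library each, from control cells and from cells exposed to a drug (10 nM, 6 hours), and both groups grew in DMEM with fetal bovine serum. Drug, antibody and any vehicle given to the control are unnamed in the labels, and the series title names KIF11, a mitotic motor. With 1 library per group and 1 cell line, no value here can be set against the spread between replicates.

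RAB proteins are small GTPases that give membranes their identity. Bound to GTP they recruit tethers, motors and coat components, and each of them marks certain compartments, from the endoplasmic reticulum through the Golgi and endosomes to lysosomes and secretory granules. Prenyl groups anchor them in membranes, exchange factors switch them on and TBC domain proteins switch most of them off. In the liver they carry secretory proteins, lipoproteins, bile transporters and receptors to and from polarised surfaces.

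Each peak has a score given by the authors, which under the MACS2 convention grows with the significance of the peak, so a larger score is a stronger peak within its own list. The lowest score in both lists was 13. Read totals were unknown, the lists differ in length, and scores of the 2 lists stand on separate scales. Of 17 hepatocyte markers, 12 had a peak at a start site in control (scores 58 to 1281) and 8 in drug (52 to 205), and ALB, AFP, APOA1, TTR and FGB had none in either list. Of 6 blood markers none had such a peak. Of 8 fibroblast and endothelial markers 2 (scores 87 and 120) had one in control and 1 (score 15) in drug, and of 6 neuronal markers 4 (74 to 628) and 3 (64 to 279). Over all protein-coding genes 47.9% had such a peak in control and 39.1% in drug. What these marker counts say about cell type was not tested, nor was the part of other cell types in the RAB values.

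The bases just before the start site are shown for 12 RAB genes, to let the DNA under peaks of different strength be compared. The first 5 had the highest control scores among genes found in both lists whose RefSeq start is the outermost end of the gene. The next 5 were, by the same rule, the strongest found in control alone, and RAB25 and RAB6B, relatives of RAB11B and RAB6A, had no peak at the start site in either list. Each line gives 150 bases from RefSeq (GRCh38.p14, the build of the files), 5′ to 3′ on the strand of the gene and ending at the base before the start site. Capitals mark matches, on either strand, to the GC box GGGCGG, the CCAAT box, the ETS site CCGGAAGT, the CRE TGACGTCA, the NRF1 site, the E-box CACGTG, the TATA box TATAAA and the AP-1 site TGANTCA. No motif of this set contains another.
RAB8A (chr19:16111739-16111888, plus strand): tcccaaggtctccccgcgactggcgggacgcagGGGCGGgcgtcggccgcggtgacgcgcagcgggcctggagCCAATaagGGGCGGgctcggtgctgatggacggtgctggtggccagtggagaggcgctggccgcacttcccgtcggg
RAB1B (chr11:66268489-66268638, plus strand): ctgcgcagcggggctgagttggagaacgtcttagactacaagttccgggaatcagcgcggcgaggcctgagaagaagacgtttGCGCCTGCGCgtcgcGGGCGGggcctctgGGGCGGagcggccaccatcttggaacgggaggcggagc
RAB6A (chr11:73761075-73761224, minus strand): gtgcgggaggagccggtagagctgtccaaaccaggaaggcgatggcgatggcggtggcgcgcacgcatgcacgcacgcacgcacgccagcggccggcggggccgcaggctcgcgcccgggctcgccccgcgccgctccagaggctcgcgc
RAB11B (chr19:8390210-8390359, plus strand): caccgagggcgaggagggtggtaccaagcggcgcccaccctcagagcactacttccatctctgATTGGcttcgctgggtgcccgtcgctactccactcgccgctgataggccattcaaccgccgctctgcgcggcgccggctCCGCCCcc
RAB5B (chr12:55973799-55973948, plus strand): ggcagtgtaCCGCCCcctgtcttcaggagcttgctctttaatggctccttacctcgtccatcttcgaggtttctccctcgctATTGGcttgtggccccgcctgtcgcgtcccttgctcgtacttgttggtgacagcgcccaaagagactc
RAB3D (chr19:11339658-11339807, minus strand): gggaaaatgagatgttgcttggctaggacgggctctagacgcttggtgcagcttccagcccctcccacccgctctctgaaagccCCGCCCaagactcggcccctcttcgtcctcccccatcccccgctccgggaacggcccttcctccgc
RAB31 (chr18:9708151-9708300, plus strand): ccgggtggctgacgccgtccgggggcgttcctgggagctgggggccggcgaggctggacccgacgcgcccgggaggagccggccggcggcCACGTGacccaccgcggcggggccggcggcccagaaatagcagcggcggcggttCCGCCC
RAB3B (chr1:51990701-51990850, minus strand): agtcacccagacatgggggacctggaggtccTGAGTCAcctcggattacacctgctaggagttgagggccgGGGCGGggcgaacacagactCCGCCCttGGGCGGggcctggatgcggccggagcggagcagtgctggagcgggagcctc
RAB22A (chr20:58309565-58309714, plus strand): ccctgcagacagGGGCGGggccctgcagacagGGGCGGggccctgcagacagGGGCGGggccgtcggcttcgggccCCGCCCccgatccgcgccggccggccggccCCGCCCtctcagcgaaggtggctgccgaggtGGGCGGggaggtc
RAB29 (chr1:205775483-205775632, minus strand): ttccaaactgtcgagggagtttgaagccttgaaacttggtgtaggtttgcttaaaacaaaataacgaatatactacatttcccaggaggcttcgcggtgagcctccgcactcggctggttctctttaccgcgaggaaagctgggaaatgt
RAB25 (chr1:156061010-156061159, plus strand): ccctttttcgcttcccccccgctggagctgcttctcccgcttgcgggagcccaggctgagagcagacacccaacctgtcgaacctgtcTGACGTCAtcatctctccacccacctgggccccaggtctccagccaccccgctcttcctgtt
RAB6B (chr3:133895883-133896032, minus strand): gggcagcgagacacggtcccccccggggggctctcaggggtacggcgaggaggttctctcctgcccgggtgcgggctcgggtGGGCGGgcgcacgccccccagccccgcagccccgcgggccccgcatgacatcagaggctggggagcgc

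In the 250 bases before each of 22198 RefSeq start sites of protein-coding genes, 53.7% held a GC box. Among 72 such windows of 51 RAB genes, some of which overlap each other, 70.8% held one. It was found in 33 of 38 RAB windows covered by a peak in both lists, in 8 of 11 covered in control alone and in 10 of 23 covered in neither. A window counted as covered when a peak shared at least 1 bp with the 250 bases before the start or the 50 from it on. These states belong to windows and not to genes, and RAB27A and RAB23, for example, have windows in different states. Over all protein-coding windows in the same 3 states the shares were 72.2%, 66.0% and 36.3%, in the same order. The CCAAT box was in 16 of 38, 0 of 11 and 4 of 23 of these windows, against 39.4%, 25.6% and 28.8% of all windows in those states. The NRF1 site was in 6, 0 and 1 of them, against 13.3%, 5.71% and 1.36% of all. The TATA box was in 0, 1 and 5, against 4.41%, 5.00% and 13.5% of all. Median CpG content, as the observed over the expected number of CG pairs, was 0.866 in RAB windows covered in both lists, 0.603 in those covered in control alone and 0.379 in those covered in neither. Over all protein-coding windows the same medians were 0.854, 0.786 and 0.380. The RAB windows thus followed all windows in having fewest CG pairs where no peak lay. A match is a description of the letters and not a bound site.

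The first comparison asked which RAB genes carried a peak at their start in control and in treated cells. A promoter peak, in the class that the authors' annotation calls promoter, was found for 38 RAB genes in control and 31 in drug, of 64 RAB genes in RefSeq. That is 59.4% of the family in control (95% exact binomial interval 46.4 to 71.5, counting error only) and 48.4% in drug (35.8 to 61.3). Over all 20052 protein-coding genes the shares were 38.8% in control and 34.2% in drug. These count only peak names found in RefSeq, 7783 of 8035 in control and 6860 of 7092 in drug, so they may be somewhat low. All RAB names were found there. A drug peak lay over the control promoter peak at 30 of these 38 genes, 78.9% (62.7 to 90.4), against 79.5% of all protein-coding promoter genes of the control list. All 31 drug promoter genes lay on a control peak, where the share over all protein-coding genes was 98.4%. Counted by peak, 30 of 41 control and 32 of 32 drug promoter peaks of RAB genes were overlapped, against 75.8% and 98.1% of all protein-coding promoter peaks. By gene name, 29 genes had a promoter peak in both lists, 76.3% of the control and 93.5% of the drug genes, against 74.3% and 84.2%. The shares overlapped were thus near the background in both directions.

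Several well-known RAB genes stayed outside that class, because their peak centre falls just inside the gene. With any class within 1 kb of a start site counted as well, 46 RAB genes had a start-site peak in control, 71.9% of the family (59.2 to 82.4), and 36 in drug, 56.3% (43.3 to 68.6). The same shares over all protein-coding genes, again from peak names found in RefSeq, were 47.9% and 39.1%. A drug peak covered 36 of the 46, 78.3% (63.6 to 89.1), against 79.7% of all protein-coding genes so marked. In drug all 36 were covered by a control peak, against 97.9%. No RAB gene had a start-site peak in treated cells alone. This wider count was chosen with the data in view, and the values of single genes below rest on it.

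RAB genes had a higher median score than all protein-coding genes with a start-site peak, in both lists. Their control scores ran from 37 to 3397 with a median of 553, where all 9937 protein-coding genes had a median of 371. Drug scores ran from 46 to 1451 with a median of 257.5, where all 8117 genes had a median of 142. The upper 25% of the control order held 20 of the 46 RAB genes, 43.5%, and the upper 25% of the drug order 18 of 36. The lowest 25% held 12 of 46 in control, near the background share, and 2 of 36 in drug. The lower quartile of control scores was 155.5 for RAB genes and 157 for all genes, so the weaker RAB genes in control did not rank high.

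**Figure D1:**
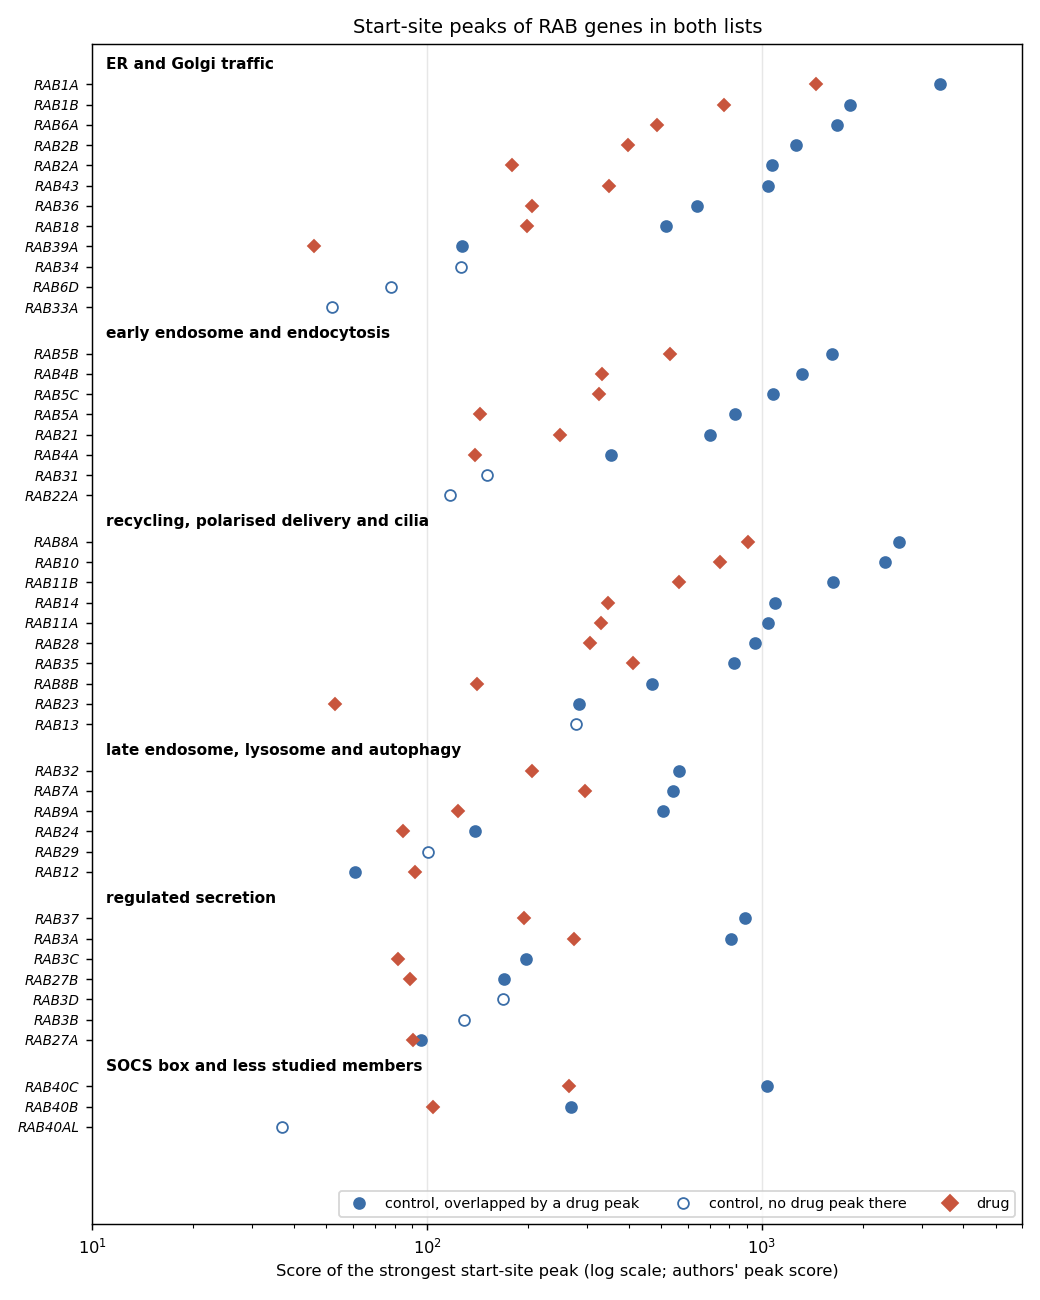
Score of the strongest peak at the start site of each RAB gene with one in control (log axis, the authors' score), grouped by where the protein works. Circles are control, filled where a drug peak lies at the start site and open where none does, and diamonds are drug. Scores of the 2 lists are on separate scales. The open circles lie between 37 and 278, below most filled ones.

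Genes for traffic between the endoplasmic reticulum and the Golgi held the strongest start-site peak of the RAB genes in both lists. RAB1A, which drives vesicles from the endoplasmic reticulum to the Golgi, had a promoter peak at chr2:65130030-65130827 in control (score 3397, rank 168 of the list). In drug its peak was at chr2:65130035-65130766 (score 1451, rank 198). A second RAB1A control peak of 198, centred 414 bp into the gene, had no drug partner. Its close relative RAB1B scored 1828 in control and 771 in drug. RAB6A, of retrograde traffic within the Golgi, scored 1682 and 487. RAB2B scored 1263 and 398, and RAB2A, which acts between both organelles, 1074 and 179. RAB43 (1044 and 350), RAB36 (639 and 206) and RAB18, found on lipid droplets (516 and 199), followed. A second RAB43 control peak of 146, centred 922 bp from a start site, had no drug partner. RAB39A was weak in both lists (127 and 46). RAB34 (126), RAB6D (78) and RAB33A (52) had a control peak without a drug peak. In all, 12 of 19 genes of this group had a start-site peak in control and 9 of these were covered in drug. Over all protein-coding genes 47.9% had such a peak in control, and 79.7% of the genes so marked were covered in drug. RAB6D resembles RAB6C and RAB6A so closely that reads may be misplaced among them, and its value is uncertain.

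Among genes of early endosomes and endocytosis, 8 of 10 had a start-site peak in control and 6 of these were covered in drug. The shares over all protein-coding genes were 47.9% and 79.7%. The RAB5 proteins, which control fusion of early endosomes, were all found in both lists. RAB5B scored 1624 in control and 531 in drug, RAB5C 1078 and 326, and RAB5A 833 and 144. At RAB5A the control list had 1 promoter peak of 1306 bp, and the drug list had 2 that overlapped it, of 860 and 255 bp, with scores of 144 and 54. RAB4B (1317 and 332) and RAB4A (355 and 139), which return receptors to the surface, and RAB21 (701 and 250) were also in both. A second RAB21 control peak of 51, centred 591 bp from a start site, had no drug partner. RAB31 (151) and RAB22A (117), which are close relatives acting between the Golgi and endosomes, were in control alone. RAB17 and RAB20 had no start-site peak.

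Genes of recycling, polarised delivery and cilia had the highest median control score of the 6 groups, 1001.5. Their median drug score was 347, just below 350 for the endoplasmic reticulum and Golgi group. Of the 11 recycling genes, 10 had a start-site peak in control and 9 of these a drug peak, against 47.9% and 79.7% over all protein-coding genes. RAB8A, which carries vesicles to the plasma membrane and the cilium, scored 2569 in control (chr19:16111237-16112015) and 912 in drug (chr19:16111321-16111965). RAB10, known for moving glucose transporters to the surface, scored 2331 and 749. RAB11B and RAB11A define the recycling endosome. RAB11B scored 1627 and 567, and RAB11A 1046 and 331. The RAB11A peak was 1699 bp wide in control and 563 bp in drug. RAB14 (1097 and 347), RAB28 (957 and 307), RAB35 of endocytic recycling and cell division (825 and 412), RAB8B (470 and 141) and RAB23, an inhibitor of Hedgehog signalling (285 and 53), were in both lists. RAB13, of tight junctions, was the strongest RAB gene without a drug peak. Its promoter peaks at chr1:153986192-153986539 and chr1:153986819-153987083 scored 278 and 171 in control. RAB25, the epithelial relative of RAB11, had no start-site peak.

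Of 9 genes for late endosomes, lysosomes and autophagy, 6 had a start-site peak in control and 5 of these were covered in drug. All protein-coding genes had shares of 47.9% and 79.7%. RAB7A, which brings late endosomes to lysosomes, scored 542 in control (chr3:128725874-128726855, annotated as intron) and 297 in drug (chr3:128725958-128726598, annotated as 5′ UTR). RAB32, of lysosome-related organelles, scored 564 and 206. RAB9A, of transport from late endosomes to the Golgi, scored 507 and 124. RAB24 scored 139 and 85. RAB12 had a promoter peak of 51 in control and 92 in drug, and a second control peak of 61, centred 875 bp into the gene, that no drug peak covered. RAB29, a partner of the kinase LRRK2, scored 101 in control and had no drug peak. RAB7B, RAB9B and RAB38 had no peak of their name in either list.

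Genes of regulated secretion had a start-site peak in control for 7 of 9, and 5 of these were covered in drug. The shares over all protein-coding genes were 47.9% and 79.7%. The median control score of the secretion genes was 170, the lowest of the 6 groups. RAB37 (888 and 195) and RAB3A, which controls synaptic vesicles (807 and 275), were the strongest. The RAB37 control peak, at chr17:74736299-74737588, lay at an internal start of a gene that begins at chr17:74671131. Another RAB37 control peak of 56, in the 5′ UTR and centred 312 bp from a start site, had no drug partner. RAB3C scored 198 and 82. RAB27B, of granule release, scored 170 and 89. RAB27A had 2 control promoter peaks of 96 and 84, of which the stronger, 245 bp wide, was covered by a drug peak of 91. RAB3D (169) and RAB3B (129) were in control alone. RAB15 and RAB26 had no start-site peak. Among the RAB40 proteins, which carry a SOCS box and join ubiquitin ligases, RAB40C (1039 and 265) and RAB40B (269 and 104) were in both lists. A second RAB40C promoter peak of 27 was in control alone. RAB40AL scored 37, by an exon peak 509 bp into this single-exon copy of RAB40A, in control alone, and its reads may be misplaced.

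Which RAB genes had a drug peak followed the strength of the control peak. All 27 RAB genes in the upper 50% of the control order were covered in drug, against 99.8% of all protein-coding genes there. In the lower 50%, 9 of 19 were covered, 47.4% (24.4 to 71.1), against 59.6%. The 10 RAB genes without a drug peak were RAB13, RAB3D, RAB31, RAB3B, RAB34, RAB22A, RAB29, RAB6D, RAB33A and RAB40AL. Their control scores ran from 278 down to 37 with a median of 121.5. The 36 with a drug peak ran from 61 to 3397 with a median of 829. The strongest unpaired RAB gene therefore lay within the range of the paired ones. Depth was unknown, so fewer reads in the drug library and less signal at these 10 genes cannot be told apart.

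**Figure D2:**
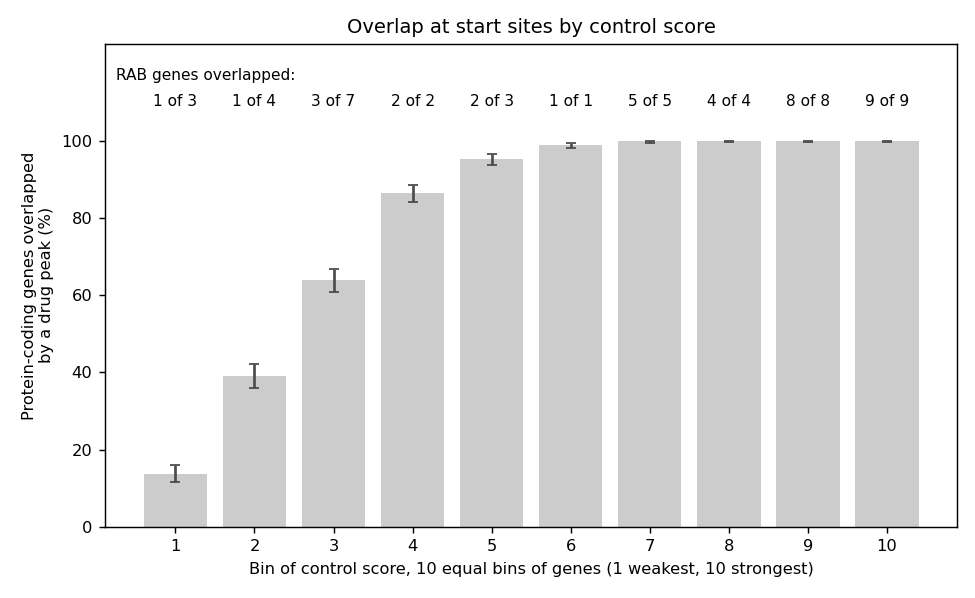
Share of protein-coding genes whose control start-site peak was overlapped by a drug peak, in 10 equal bins of control score from weakest to strongest, with exact 95% binomial intervals. Numbers above the bars count the RAB genes overlapped. In bins 6 to 10 all RAB genes were overlapped, and the 10 that were not lie in bins 1, 2, 3 and 5.

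For 35 RAB genes the strongest control start-site peak was itself overlapped by a drug peak, as it was for 7859 protein-coding genes in all. Ranking both scores within these same 7859 genes puts the lists on an equal length. RAB genes had a median place in the top 27.7% by control score and in the top 25.7% by drug score. Their places moved by a median of 6.69 percentage points between the orders, against 7.13 points for all genes. Spearman's rho between both scores was 0.920 across the 35 RAB genes and 0.903 across all 7859, as a description over genes that share the same 2 libraries. RAB2A fell from the top 17.7% to the top 41.7%, and RAB5A from the top 27.7% to the top 51.0%. RAB27A rose from the top 96.5% to the top 69.7%, and RAB7A from the top 46.4% to the top 21.5%. These 4 were the RAB genes among the 35 that moved by at least 20 points. The RAB27A pair was weak (96 and 91) and lay at -872 bp from an annotated start. The outermost RefSeq start of RAB27A was covered by a peak named PIGBOS1, with 318 in control and 79 in drug. RAB12 is outside the 35, because its strongest control peak (61) had no drug partner, although its promoter peak (51 in control, 92 in drug) had one. Of all paired genes, 5.8% moved down and 6.07% moved up that far, so 2 of 35 in each direction is near the background. RAB1A, RAB8A, RAB2B, RAB8B and RAB10 kept their places within 0.42 points.

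**Figure D3:**
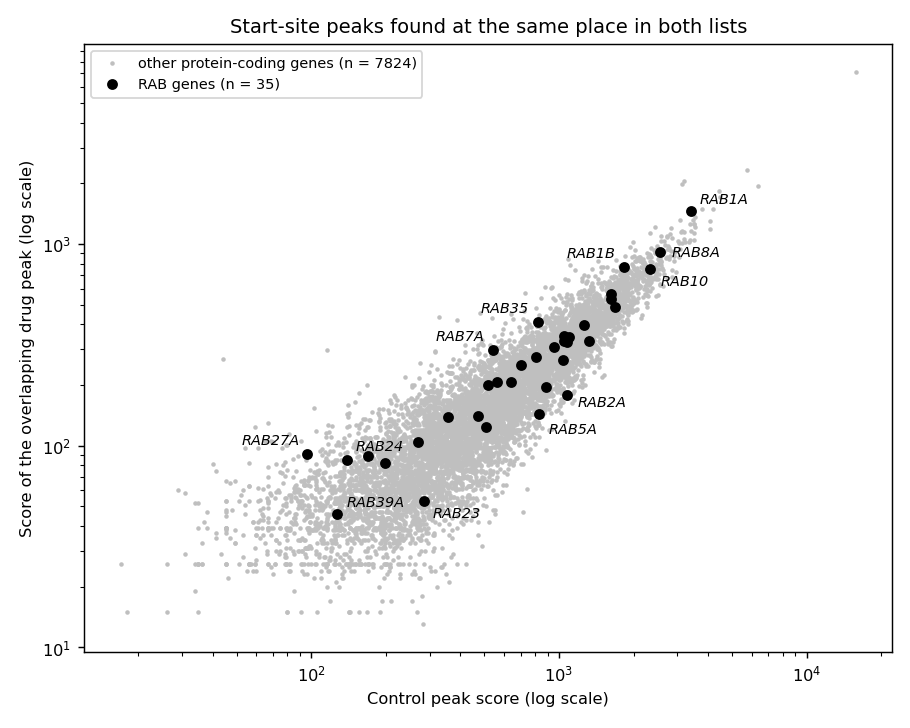
Control score of the start-site peak (x axis, log scale) against the score of the drug peak overlapping it (y axis, log scale), for 35 RAB genes in black and the rest of the 7859 protein-coding genes in grey. RAB1A, RAB8A and RAB10 stand at the strong end, and RAB2A and RAB5A lie below RAB genes of similar control score such as RAB43 and RAB35.

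Peaks at RAB start sites were narrower in drug. In 34 of the 35 pairs the drug peak was the narrower one, 97.1% against 94.4% of all protein-coding pairs, and RAB18 (619 bp in control, 738 bp in drug) was the exception. Median widths were 779 bp in control and 599 bp in drug for RAB genes, and 748 and 471 bp for all genes. The median ratio of drug to control width was 0.763 for RAB genes and 0.691 for all. In 27 of the 35 pairs the drug peak lay wholly inside the control peak, 77.1% against 80.7% of all protein-coding pairs. With depth unknown, a narrower signal and fewer reads cannot be told apart here.

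**Figure D4:**
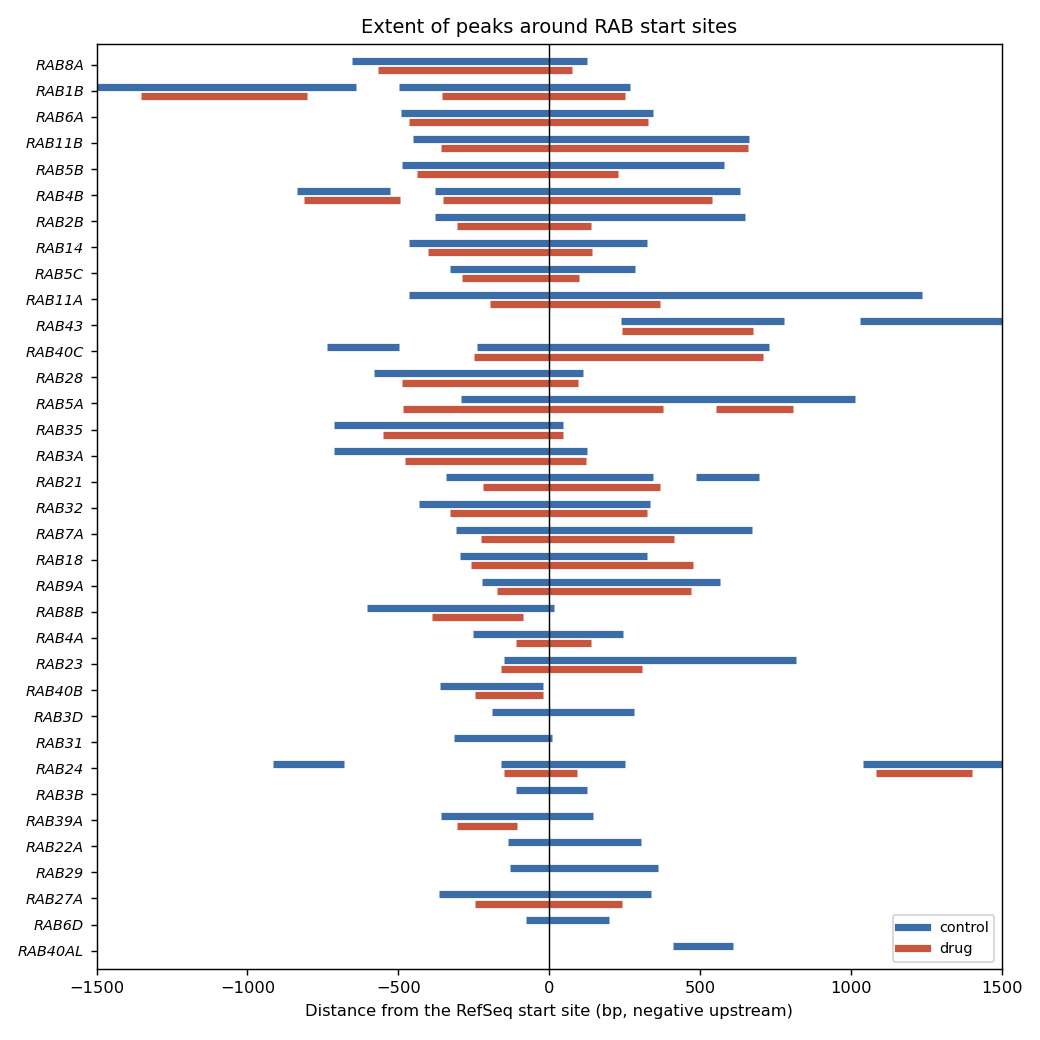
Extent of all control (blue) and drug (red) peaks within 1500 bp of the start site, for RAB genes whose RefSeq start is the outermost end of the gene, ordered by control score from top to bottom. Peaks annotated to a neighbouring gene are drawn too, and negative distances lie upstream. Drug peaks mostly sit within the control peaks, and at RAB5A 2 drug peaks overlap the single control peak.

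The second comparison asked about RAB peaks away from promoters. Outside the promoter class 31 of 118 control peaks of RAB genes were overlapped by a drug peak, 26.3% (18.6 to 35.2), against 29.2% of 28297 such peaks of all protein-coding genes. Of the drug peaks outside promoters 31 of 59 were overlapped by a control peak, 52.5% (39.1 to 65.7), against 57.8%. Within 1 kb of a start site 6 of 13 control and 5 of 5 drug peaks outside the promoter class were overlapped, against 59.4% and 94.4%. Beyond 1 kb from any start site there were 105 control peaks at 37 RAB genes and 54 drug peaks at 29. Introns held 73 of the control and 34 of the drug peaks, and intergenic DNA 20 and 13. Among peaks at any distance, introns held 50.3% of RAB and 44.0% of all protein-coding peaks in control, and 37.4% and 37.3% in drug. Intergenic DNA held 12.6% and 17.6% in control, and 14.3% and 18.8% in drug. The overlapped shares were 23.8% in control and 48.1% in drug, against 25.7% and 53.3% of all protein-coding peaks that far away. Median scores of the distal RAB peaks were 59 in control and 39 in drug, against 62 and 39 for all distal protein-coding peaks. Of the distal drug peaks 34 had the smallest width of 200 bp, 63.0% against 54.3% of all such protein-coding peaks.

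Some distal peaks were strong and found in both lists. The strongest, in intron 1 of RAB37 at chr17:74691092-74691399, had the same limits in both lists and scored 16610 in control and 7878 in drug. It lay in an AluJb repeat, and since Alu copies resemble each other its reads may belong elsewhere. RAB11A had an intergenic peak at -36598 bp from its start (668 in control, 154 in drug) and RAB35 a CpG island peak at 29532 bp (638 and 172), beyond the end of RAB35 and in an intron of another gene, where negative distances lie upstream. RAB1B had a peak in the 3′ UTR of the upstream neighbour (616 and 208). RAB10 had an intergenic peak at -21678 bp (566 and 144). RAB31 kept peaks at -34760 bp (562 and 178) and 35411 bp (551 and 176), although its promoter peak of 151 had no drug partner. These genes are the nearest start sites by annotation, which does not tie a distal peak to the gene.

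Other distal peaks were weak and in 1 list. Of all protein-coding peaks beyond 1 kb from a start site, 25.7% in control and 53.3% in drug were overlapped by the other list. Most such control peaks of any gene were therefore unpaired. RAB35 had 10 distal control peaks, of which 9 had no drug partner (scores 37 to 89). RAB43 had 6 in control, all unpaired (35 to 81), and RAB2A 5, all unpaired (39 to 114). RAB7A had 5 unpaired among 7 (40 to 123). RAB1A had 4 of 8 and RAB10 3 of 8 distal control peaks covered in drug. RAB6A showed the reverse, with 4 distal peaks in drug (15 to 53) and none in control. RAB20 was found in drug alone, by an intergenic peak of 26 upstream of the gene. RAB15, RAB17, RAB20, RAB25, RAB26, RAB33B, RAB40A and RAB42 had distal peaks and no start-site peak, with scores up to 119. RAB19, RAB30, RAB38, RAB39B, RAB41, RAB44, RAB6B, RAB6C, RAB7B and RAB9B had no peak of their name in either list.

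**Figure D5:**
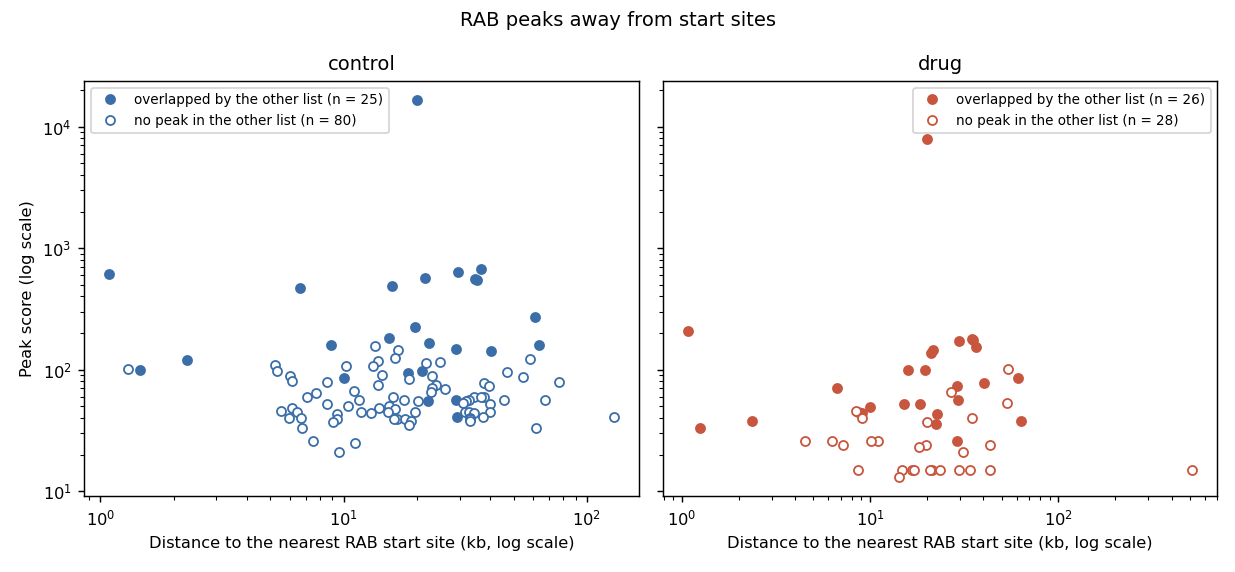
Score (log axis) against the distance to the nearest RAB start site (kb, log axis) for 105 control and 54 drug peaks outside promoters and beyond 1 kb. Filled points were overlapped by the other list, 25 in control and 26 in drug. All points above a score of 200 are filled in both panels, and the top point in each is the RAB37 Alu peak.

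Genes of the machinery that serves RAB proteins were read from lists by role. Together they held 157 genes, of which 113 had a start-site peak in control, where the share over all protein-coding genes was 47.9%. A drug peak covered 92 of these 113, 81.4% (73.0 to 88.1), against 79.7% of all protein-coding genes so marked. Prenylation and recycling factors had a start-site peak for 6 of 8, all covered, led by RABGGTB, a subunit of the enzyme that adds prenyl groups to RAB proteins (4200 in control, 1483 in drug), and RABIF (1131 and 470). Exchange factors were covered in 31 of 36, led by RABGEF1, which activates RAB5 (1614 and 469), and DENND4A (1455 and 485). RIN1 (181) and RIN2 (177), which also act on RAB5, were the strongest not covered, although RIN1 had a drug peak of its name (47) elsewhere. TBC domain proteins, which switch RAB proteins off, were covered in 27 of 32, led by EVI5 (1871 and 784) and EVI5L (1329 and 318). TBC1D7 (124) and TBC1D9B (123) were the strongest not covered.

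Effectors, which bind RAB proteins in the GTP state, were covered in 24 of 34. The share over all protein-coding genes was 79.7%. Control start-site scores of effectors had a median of 209, against 371 over all protein-coding genes. Effectors were led by USO1, a tether that binds RAB1 (1833 in control, 597 in drug), and GOLGA5 (1360 and 415). ANKFY1, an effector of RAB5, had the strongest effector peak not covered (351, in an exon), before MICALL2, an effector of RAB13 (137). RAB-like proteins were covered in 4 of 5, against the same 79.7% over all protein-coding genes. RABL3 (953 and 463) and RABL2A (620 and 163) were strongest and IFT22 (116) was not covered. RABL2A and RABL2B are near-identical, and the drug list named RABL2B (181), so their values are uncertain. RAB3IP, the exchange factor of RAB8 that the symbol rule also takes, scored 638 and 221, and RAB5IF 818 and 308.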

How the data were processed

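Each library came as 1 list of peaks made by the authors with MACS2 and annotated with HOMER against hg38, per the file headers, so peaks were called per library. The deposited score of a peak is a whole number, which MACS2 derives from the q-value, and the distance to the nearest start site is in bp. The sources used here do not give the aligner, tool versions or whether a background library was used in peak calling. IgG and Pol II control groups of the series are not analysed here. In the control list 1 line had been emptied.

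Samples were grouped by title. Peaks overlapped when they shared at least 1 bp. Coordinates are 1-based hg38. Shares carry exact Clopper-Pearson 95% intervals. With 1 library per group no p-value was computed. Work used Python 3.11.15, pandas 2.3.3 and SciPy 1.17.1, and the overlap code was tested on simulated peaks. All 56 symbols matched RefSeq. Of 64 RAB genes 51 had a start-site sequence, and RAB12, RAB15, RAB1A, RAB20, RAB26, RAB2A, RAB33A, RAB33B, RAB36, RAB37, RAB38, RAB39B and RAB44 had none. Named genes were all unpaired members, the 8 best-ranked shared ones, the families RAB1, RAB5, RAB7, RAB11 and RAB27, members with several promoter peaks, the 5 strongest peaks outside promoters per list, and 2 covered and 2 uncovered genes per pathway list. Other members are given by score. Members, lists and motifs were chosen with earlier results of these data known.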

Additional observations from a re-analysis of the deposited data

How the results depend on the processing

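Of 33 alternative values, 32 stayed within the 95% interval of the reported share or within 1.5 times the reported count. The exception was the overlap of control RAB peaks outside promoters, 26.3% as reported. It was 47.5% (28 of 59) when both lists were held to the length of the shorter one, where 59 of the 118 control peaks remain. No share over all protein-coding peaks was taken at this setting, so whether 47.5% is particular to RAB peaks was not tested. Requiring 50% of a peak to be covered lowered the share of control RAB promoter genes from 78.9% to 63.2% (24 of 38). That lies just above the lower limit of 62.7 of the reported interval, and no share over all protein-coding genes was taken under this rule. Comparing by gene name gave 76.3%. The other settings were a score of at least 50, peaks within 500 bp merged, all symbols of the rule, and any class within 1 kb of a start site, the last also joined to the promoter class, which was chosen after seeing the data. No paired analysis was possible because each group has 1 library. Unknown depth limits every difference between the lists.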

Other observations

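RAB30, a Golgi RAB gene, had no peak of its own name. The window of 300 bases at its outermost RefSeq start was overlapped in both lists by a peak named for the divergent transcript RAB30-DT. That peak scored 1637 in control and 408 in drug. The outermost of the RefSeq starts of RAB27A was covered by a peak named PIGBOS1 (318 and 79), while the promoter peaks of RAB27A by name scored 96 and 84 in control. Peaks were also read by position and not by name, where sharing at least 1 bp with the window of 300 bases at a RefSeq start counted as covered. By this count 40 of 51 RAB genes were covered in control, 32 in drug, and none in drug alone. Such a peak need not lie over the start itself. Over 15842 protein-coding genes with such a sequence the covered shares were 57.1% and 47.2%, and for RAB genes 78.4% and 62.7%.

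RAB genes on the X chromosome were a set chosen after their values were seen. Of 7 such genes, 3 had a start-site peak in control (RAB9A, RAB33A and RAB40AL) and 1 in drug (RAB9A). On the autosomes 43 of 57 RAB genes had one in control and 35 in drug. Over all protein-coding genes 40.4% of those on X and 48.4% of those on autosomes had a start-site peak in control, and 33.0% and 39.5% in drug. The control share of RAB genes on X, 42.9%, was thus near that of all genes on X.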
